A study of Mus musculus with 8 samples.

Results

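The Toll-like receptor genes measured here were a named group of 10 out of the 24259 genes in the count table: the receptors Tlr1, Tlr4, Tlr7 and Tlr9, the receptor homolog Cd180 with its partner Ly86 (MD-1), the chaperone Unc93b1, the adaptor Myd88 and the kinases Irak1 and Irak4. They were chosen by gene symbol, without a measured value in the rule, and all 10 were tested among the 12744 genes with enough counts. RNA was sequenced from 8 libraries of lymph node B cells on the way to the germinal center (NP+IgDlowB220+), each holding about 200 sorted cells of C57BL/6 mice by the sample labels, at day 3 after NP-OVA immunization. In the HET group (4 libraries) the B cells had been helped by transferred OT-II T cells, which recognize ovalbumin, of genotype CD4-CrexBcl6fl/+. In the WT group (4 libraries) the transferred OT-II T cells carried CD4-Cre with intact Bcl6.

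Both groups came from CD45.1 Sap-/- recipients, in which endogenous T cells do not sustain germinal centers, and both had been immunized subcutaneously with NP-OVA plus LPS in alum. LPS is a ligand of TLR4, and mice of both groups had received it. Exposure of the sorted B cells to it was not measured, and no group without LPS was analysed here. CD4-Cre acts in T cells, so the Bcl6 allele was removed in the transferred helper cells and not in the B cells, which leaves no targeted gene to check in these libraries. Per the study's methods, cells of the recipients of a group were pooled before the 4 repeats were sorted. The p-values therefore measure the spread of sorting and library preparation, and T cell genotype and pool cannot be told apart.

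Toll-like receptors are pattern recognition receptors that B cells express beside the antigen receptor. TLR1 pairs with TLR2 at the cell surface to bind bacterial lipopeptides, TLR4 binds LPS, and TLR7 and TLR9 recognize single-stranded RNA and CpG-containing DNA in endosomes, which they reach only with the help of UNC93B1. RP105, the product of Cd180, is a surface homolog without a signalling domain of the receptor type and is stabilised by MD-1. Most of these receptors signal through the adaptor MYD88, which assembles IRAK4 and IRAK1 and leads to NF-kB activation.

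The sequenced libraries held between 6652386 and 12559189 counts, so that 3 counts corresponded to between 0.241 and 0.455 CPM, the count scaled to a common library size, which sets how low a level could be seen. Values below are CPM after scaling by TMM library factors, and comparisons were made with edgeR's quasi-likelihood test, with p-values adjusted by the Benjamini-Hochberg method over all genes tested. The summed level of Ms4a1, Cd79a and Cd79b, which encode CD20 and the antigen receptor's signalling chains, was 7047 to 8133 CPM in HET and 8221 to 8843 CPM in WT. Of the 12 B cell markers examined, 11 had a negative log2 fold change, and none passed the adjusted threshold in edgeR. At an unadjusted p under 0.05, 9 of the 12 were lower in HET, beside 3.88% of all genes tested. For 5 of the 12 every HET library was below every WT library, beside 2.62% of all genes tested. Some libraries stood apart in markers of other cells. HET replicate 1 had 2192 CPM of antibody-secreting cell markers against 259 to 589 CPM in the other libraries, and WT replicate 2 had 399 CPM of the myeloid gene Lyz2 against 0 to 28.5 CPM. T cell markers summed to 356 to 642 CPM in HET and 233 to 462 CPM in WT, with 14 of 15 tested positive in log2 fold change and none past the adjusted threshold, and conventional dendritic cell markers summed to 306 to 387 CPM in HET and 314 to 376 CPM in WT. Most of the latter sum was Ccr7 (284 to 361 CPM), which activated B cells also express, while Flt3 of the same list was at 15.6 to 26.1 CPM in HET and 5.80 to 12.3 CPM in WT, without overlap (log2 fold change 1.36, unadjusted p = 0.00123, adjusted p = 0.280 in edgeR). Of the 5 tested genes of that list, 2 had a positive log2 fold change and 3 a negative one, among them Zbtb46 (-0.45) and Xcr1 (-0.66). Groups without overlap and higher in HET were seen for 1.99% of all genes tested. The part of these other cells in the results below was not tested.

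The question was whether B cells expressed Toll-like receptor genes at other levels when 1 Bcl6 allele had been removed from their helper T cells. No member passed an adjusted p of 0.05 in edgeR, where 3 of 12744 genes did (0.0235%). Tlr1 was the member nearest to a call and had the only groups that did not overlap. The log2 fold change of HET over WT was negative for 9 of 10 members with a median of -0.16, beside a median of -0.001 and 50.1% negative over all genes tested. Relative to the 3 B cell genes above, 5 of 10 members had a lower mean in HET and 5 had a higher one. The sum of those 3 genes was itself lower in every HET library than in any WT library, which raises every gene's ratio in HET. The share of negative values over all genes tested was not computed on that scale, so the split cannot tell whether the excess held. At an unadjusted p under 0.05, 1 of 10 members was lower in HET and none was higher, where 3.88% and 3.34% of all genes tested were.

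**Figure D1:**
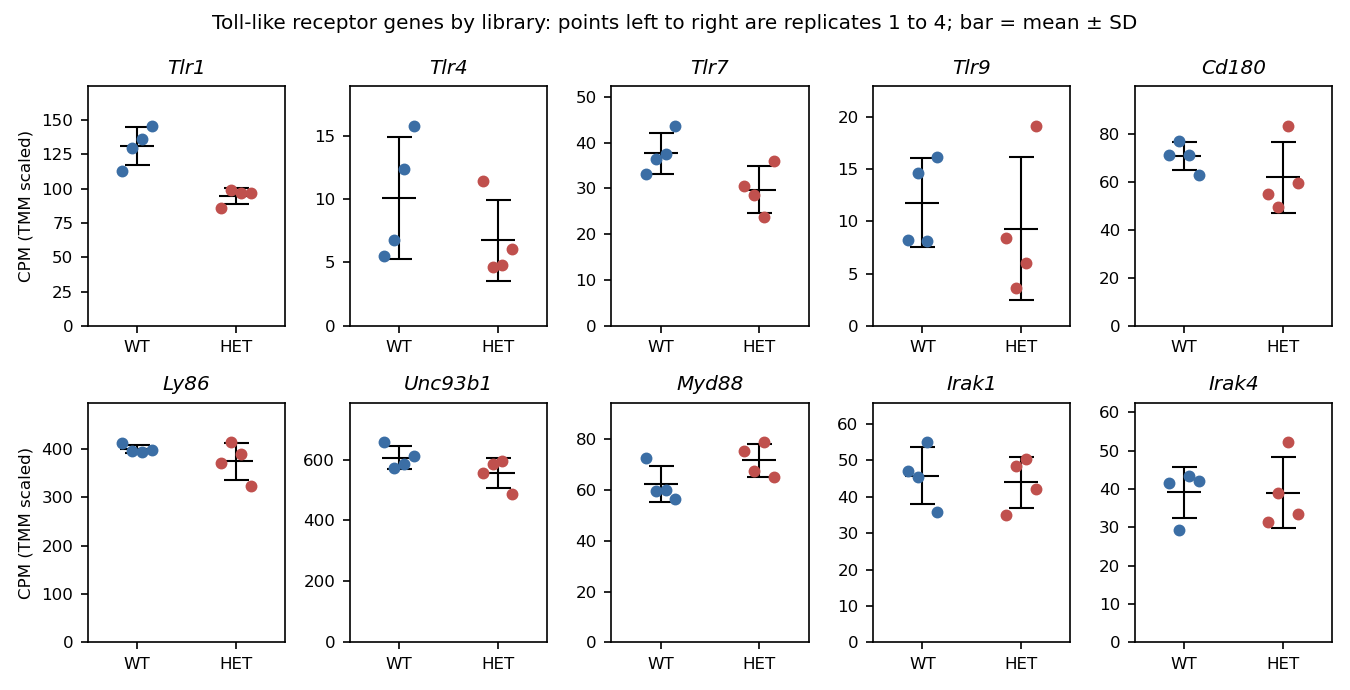
CPM (TMM scaled, axes from 0) of the 10 members in each library, with points from left to right for replicates 1 to 4 of WT (blue) and HET (red) and bars for the mean ± SD. The 4 HET libraries of Tlr1 lay at 85.9 to 99.1 CPM, below the 4 WT libraries at 112.5 to 145.5 CPM, and the groups of every other member overlapped.

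Among the surface receptors, Tlr1 was measured at 85.9, 99.1, 96.5 and 97.1 CPM in HET replicates 1 to 4 and at 112.5, 129.8, 135.8 and 145.5 CPM in WT replicates 1 to 4. Every HET library was below every WT library, which 2.62% of all genes tested also showed (1.99% showed the opposite order). The means were 94.6 ± 5.95 CPM in HET and 130.9 ± 13.9 CPM in WT (SD, n = 4 each), a log2 fold change of -0.47 (SE 0.12, 95% interval -0.73 to -0.21), with an unadjusted p of 0.00165 and an adjusted p of 0.328 in edgeR. Tlr1 ranked 63 of 12744 by p. In DESeq2 the log2 fold change was also -0.47 but the adjusted p was 0.0365, so that Tlr1 was called there, as 1 of 54 genes lower in HET among 13834 tested (0.39%). The call thus depended on the tool, while the size of the difference did not.

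Like Tlr1, 11 of the 12 B cell markers given above had a negative log2 fold change. Per 1000 CPM of Ms4a1, Cd79a and Cd79b, a scale chosen after seeing the data, Tlr1 was 11.4, 13.0, 11.9 and 13.8 in HET replicates 1 to 4 and 12.7, 15.2, 15.6 and 17.7 in WT replicates 1 to 4. On this scale the groups overlapped, and the means of 12.5 ± 1.08 in HET and 15.3 ± 2.04 in WT (SD, n = 4 each) gave a two-sided exact permutation p of 0.0857, where 0.0286 is the smallest that 4 against 4 libraries allow. The log2 ratio on this scale was -0.29. The sum of these B cell genes was itself lower in every HET library than in any WT library, which raises every gene's ratio in HET. In pooled libraries of this kind, fewer cells of a type and less RNA per cell cannot be told apart.

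Tlr1 lies at chr5:64924679-64933563 on the minus strand of GRCm38. Its closest relative is Tlr6, which encodes another TLR2 partner, and 13.6% of the 3332 stretches of 50 bases in Tlr1 transcripts also occur in Tlr6. The longest run that both genes share has 229 bases, lies inside 1 coding exon of Tlr1 at chr5:64925537-64925765 (GRCm38, minus strand), and is printed from the GENCODE transcripts because a read from it has no single origin:

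Tlr1 and Tlr6 shared run: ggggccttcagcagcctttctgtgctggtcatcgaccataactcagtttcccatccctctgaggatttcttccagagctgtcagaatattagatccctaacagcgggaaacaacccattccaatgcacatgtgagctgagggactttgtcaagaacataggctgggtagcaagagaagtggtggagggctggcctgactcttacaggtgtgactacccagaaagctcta

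Tlr6 itself was measured at no more than 10.8 CPM in any library. Whether the authors' counting dropped or split reads of this run was not stated, so part of the Tlr1 count is uncertain. With any other gene, Tlr6 included, Tlr1 shared 15.4% of its 50-base stretches. The other members shared 2.18% (Irak1), 0.018% (Tlr4) or none of theirs.

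**Figure D2:**
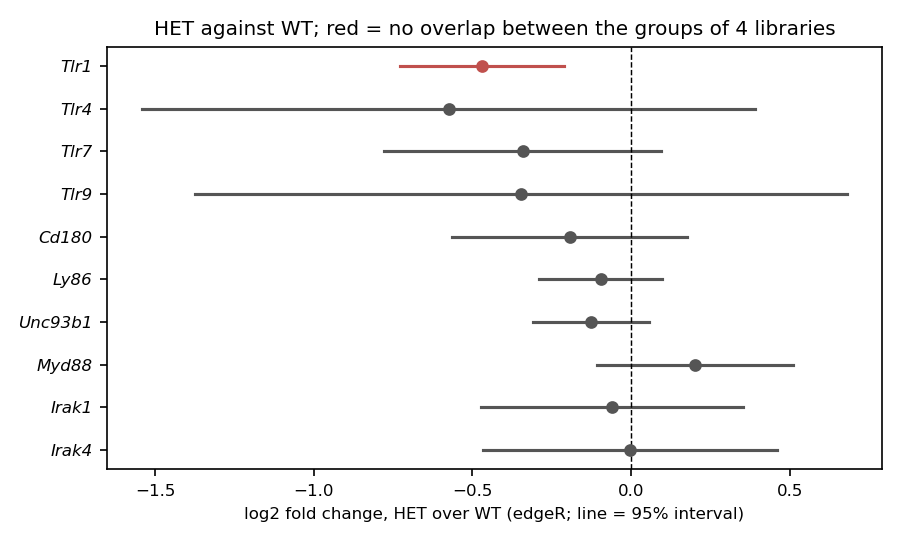
log2 fold change of HET over WT (x axis) with its 95% interval from edgeR for each member, with the dashed line at no difference. The interval of Tlr1 (red, -0.73 to -0.21) was the one that did not include 0, and those of Tlr4 and Tlr9 were the widest.

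Over the 8 libraries, the genes whose log2 CPM was most like that of Tlr1 among 7229 genes were Junos (Pearson r = 0.979) and Jun (r = 0.977), which encodes an AP-1 subunit. Junos is transcribed from the strand opposite to Jun, so that these values may not be independent where counting ignored strand. Junos had a log2 fold change of -1.02. These correlations are descriptions over 8 libraries of 2 groups, and Tlr1 and both genes had lower means in HET, so that r includes the difference between the groups. For Tlr7 the most similar gene was Tchp (r = 0.969) and for Myd88 it was Ino80b (r = 0.964). Every member searched had a best r of at least 0.943 (Irak1 with Actr2), so a high r is not particular to Tlr1 and Jun. The promoter of Tlr1 was read from RefSeq (GRCm38.p6, minus strand), with the 250 bases before the outer of its 2 annotated starts at chr5:64933559-64933808, and is printed because AP-1 and ETS family letters were searched in it. The capitals mark a match to AGGAAGT, letters of the PU.1 type, at position -22 from the start:

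Tlr1 promoter: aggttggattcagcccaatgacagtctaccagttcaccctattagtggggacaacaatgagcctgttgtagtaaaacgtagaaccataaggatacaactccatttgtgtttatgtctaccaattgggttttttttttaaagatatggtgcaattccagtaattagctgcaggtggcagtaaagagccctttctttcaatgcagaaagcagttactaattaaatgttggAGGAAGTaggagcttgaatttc

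AGGAAGT occurs on either strand in 7.69% of 32851 such promoters, and the AP-1 letters TGANTCA, which occur in 6.75%, were not in this window. Of the 10 members, 7 had a promoter entry, and only the Tlr9 promoter held TGANTCA, at position -58.

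Tlr4 was low in these cells, at 11.4, 4.66, 4.79 and 6.07 CPM in HET replicates 1 to 4 and 5.51, 6.81, 12.4 and 15.8 CPM in WT replicates 1 to 4. HET replicates 1 and 4 lay within the WT range, and the other HET libraries lay below it. The means of 6.73 ± 3.18 CPM and 10.1 ± 4.80 CPM (SD, n = 4 each) gave a log2 fold change of -0.58 (SE 0.45, 95% interval -1.54 to 0.39; adjusted p = 0.839 in edgeR), an interval that leaves room for a difference in either direction. Single libraries moved this value in both directions, to -0.96 without HET replicate 1 (adjusted p = 0.640) and to -0.28 without WT replicate 4 (adjusted p = 0.966). Without HET replicate 1 and WT replicate 2 together it was -1.11 (unadjusted p = 0.0435, adjusted p = 0.517). The summed level of macrophage, monocyte and neutrophil markers was 173 to 401 CPM in HET and 119 to 501 CPM in WT, and was carried by Ly6c2 (339 CPM in HET replicate 1) and by Lyz2 in WT replicate 2. Its members did not move together. Of the 6 tested genes of the list, 4 had a negative log2 fold change and 2 a positive one. The positive ones were Ly6c2 (1.05, adjusted p = 0.732 in edgeR) and Cd68 (0.77, adjusted p = 0.859 in edgeR). Csf1r, the receptor for M-CSF, was at 7.48 ± 1.90 CPM in HET and 14.3 ± 4.63 CPM in WT (SD, n = 4 each; log2 fold change -0.93, unadjusted p = 0.0218, adjusted p = 0.602 in edgeR). Adgre1, which encodes F4/80, was highest at 11.3 CPM in WT replicate 4, where Tlr4 was also highest, against 0.300 to 3.35 CPM elsewhere. Other markers of the list were low in that library. Csf1r (8.14 CPM) and Cd68 (5.11 CPM) had their lowest WT values there, and Lyz2 was at 0. The summed level of the list, 119 CPM, was the lowest of the 8 libraries. Csf3r and Siglec1 of the same list were at or under 3 counts in all 8 libraries. The part of myeloid cells in the Tlr4 values was not tested.

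For the endosomal receptors, Tlr7 was measured at 30.5, 28.5, 23.7 and 36.1 CPM in HET replicates 1 to 4 and at 33.1, 36.4, 37.6 and 43.6 CPM in WT replicates 1 to 4. The groups overlapped only through HET replicate 4. The log2 fold change was -0.34 (SE 0.20, 95% interval -0.78 to 0.09; unadjusted p = 0.114, adjusted p = 0.776 in edgeR). Tlr9 was measured at 8.36, 3.63, 5.99 and 19.1 CPM in HET replicates 1 to 4 and at 8.17, 14.6, 8.08 and 16.2 CPM in WT replicates 1 to 4. The highest library was 5.27 times the lowest, and both lay within HET. The log2 fold change was -0.35 (SE 0.48, 95% interval -1.38 to 0.68; adjusted p = 0.918 in edgeR), and it was -0.96 without HET replicate 4 (unadjusted p = 0.0511) and -0.08 without HET replicate 2. Among HET libraries Tlr9 had a coefficient of variation of 73.7%, well above the 10.3% that counting error gives.

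Plasmacytoid dendritic cells are rich in TLR7 and TLR9, and 8 of their markers were summed in each library. The sum was 192, 169, 45.8 and 67.6 CPM in HET replicates 1 to 4 and 19.3, 39.1, 52.5 and 129 CPM in WT replicates 1 to 4. It was highest in HET replicates 1 and 2, in which Tlr9 was 8.36 and 3.63 CPM, and lower in HET replicate 4, in which Tlr9 was at its highest. Among WT libraries the order was different. WT replicate 4 had the highest sum of the WT group, and also its highest Tlr9 (16.2 CPM) and Tlr7 (43.6 CPM). Siglech, which encodes a surface lectin of these cells, was at 0 in WT replicates 1 and 2, while Pacsin1 (14.0 and 17.9 CPM) and Ccr9 (3.801 and 9.042 CPM) of the same list were detected there. The part of these cells in the Tlr7 and Tlr9 values was not tested.

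**Figure D3:**
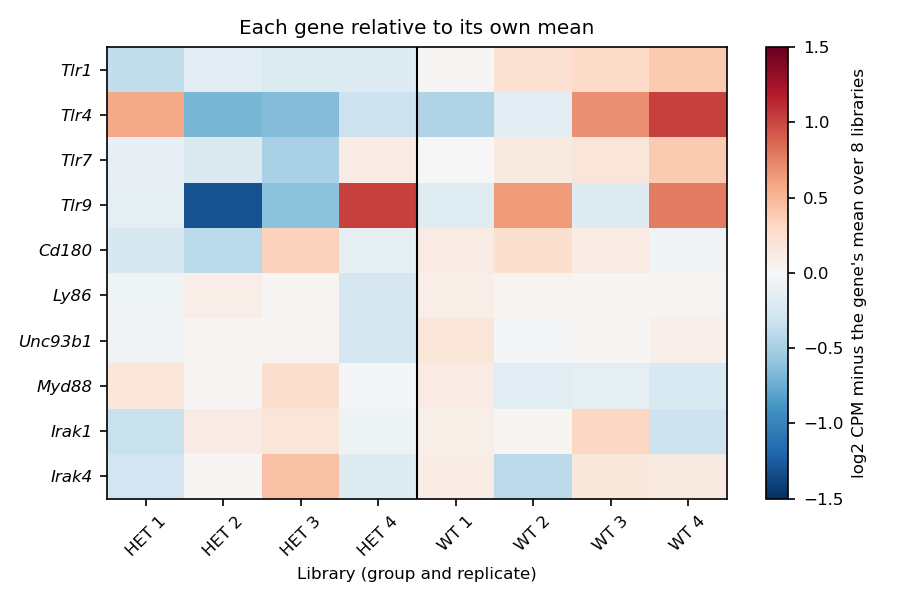
log2 CPM of each member minus that member's mean over the 8 libraries (colour, from -1.5 in blue to 1.5 in red), with HET replicates left of the line and WT replicates right of it. Tlr9 and Tlr4 varied most between libraries of the same group, Tlr1 was lower in all 4 HET libraries than in any WT library, and Ly86 and Unc93b1 had the smallest ranges, with the highest library at 1.28 and 1.35 times the lowest.

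The receptor homolog Cd180 was measured at 55.1, 49.4, 83.2 and 59.6 CPM in HET replicates 1 to 4 and at 71.2, 77.1, 71.2 and 62.9 CPM in WT replicates 1 to 4. HET replicate 3 was above all WT libraries, while the other HET libraries were below all of them. The log2 fold change was -0.19 (SE 0.17, 95% interval -0.56 to 0.18; adjusted p = 0.861 in edgeR) and ran from -0.37 without HET replicate 3 (unadjusted p = 0.0377, adjusted p = 0.787) to -0.095 without HET replicate 2 (unadjusted p = 0.605). Ly86 was measured at 370.1, 412.7, 388.9 and 323.0 CPM in HET and 412.1, 395.2, 393.1 and 397.7 CPM in WT, in replicate order. HET replicate 4 was the lowest, and the WT libraries had a coefficient of variation of 2.15%. Its log2 fold change was -0.10 (SE 0.09, 95% interval -0.29 to 0.10; adjusted p = 0.870 in edgeR), and it was -0.03 without HET replicate 4.

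Unc93b1, the chaperone that carries TLR7 and TLR9 to endosomes, was measured at 556.9, 586.5, 594.0 and 485.7 CPM in HET and at 655.9, 571.3, 586.8 and 611.2 CPM in WT, in replicate order. HET replicate 4 was again the lowest, and the groups overlapped. The log2 fold change was -0.13 (SE 0.09, 95% interval -0.31 to 0.06; adjusted p = 0.801 in edgeR), and it was -0.063 without HET replicate 4. Ly86 and Unc93b1 followed each other over the 8 libraries (r = 0.91), the highest of 45 member pairs, whose median r was 0.13.

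Myd88, the adaptor, was the member with a higher mean in HET, with 75.4, 67.5, 78.8 and 65.2 CPM in HET replicates 1 to 4 and 72.8, 59.8, 60.2 and 56.7 CPM in WT replicates 1 to 4. WT replicate 1 lay within the HET range, and the other WT libraries lay below all HET libraries. The means of 71.7 ± 6.43 CPM and 62.4 ± 7.12 CPM (SD, n = 4 each) gave a log2 fold change of 0.20 (SE 0.14, 95% interval -0.11 to 0.51; adjusted p = 0.814 in edgeR). Per 1000 CPM of the 3 B cell genes, Myd88 was 8.85 to 10.01 in HET and 6.89 to 8.23 in WT, without overlap, with means of 9.45 ± 0.505 and 7.27 ± 0.645 (SD, n = 4 each). The two-sided exact permutation p was 0.0286, the smallest possible, unadjusted for the 10 members compared on this scale. The sum of the 3 B cell genes was itself lower in every HET library than in any WT library, which raises every gene's ratio in HET. The share of all genes tested without overlap on this scale was not computed, so the separation cannot be read as particular to Myd88. Myd88 was inversely related to Tlr7 (r = -0.87) and Tlr1 (r = -0.84) over the 8 libraries. Myd88 had a higher mean in HET and both receptors had lower ones, so that r includes the difference between the groups. Exons of Myd88 overlap those of Acaa1a on the opposite strand over 11.26% of their bases, and reads there cannot be assigned where strand was not used in counting.

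**Figure D4:**
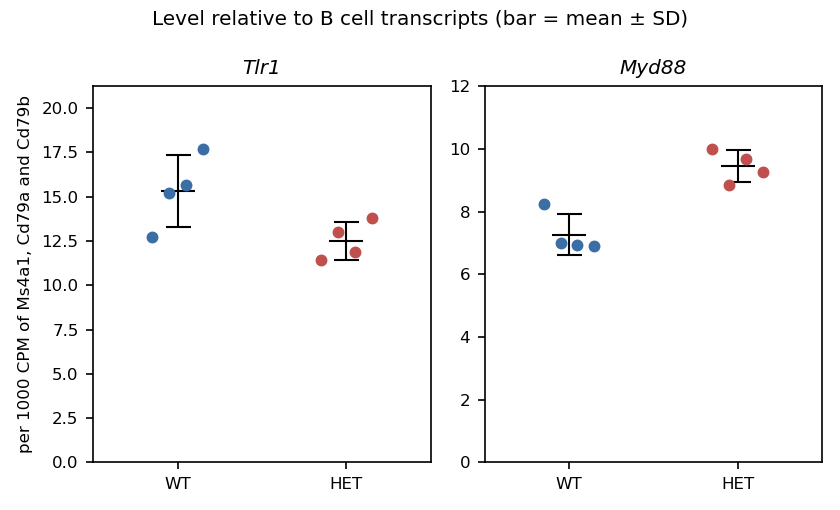
Tlr1 and Myd88 CPM per 1000 CPM of Ms4a1, Cd79a and Cd79b in the same library (axes from 0), with points from left to right for replicates 1 to 4 and bars for the mean ± SD. The groups of Tlr1 overlapped on this scale, and those of Myd88 did not. The sum used as divisor was itself lower in every HET library than in any WT library, which raises every gene's ratio in HET.

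The kinases had the log2 fold changes nearest to 0 of all members. Irak1 was measured at 35.1, 48.3, 50.5 and 42.0 CPM in HET and at 47.1, 45.4, 54.9 and 35.8 CPM in WT, in replicate order. Irak4 was measured at 31.5, 39.0, 52.1 and 33.5 CPM in HET and at 41.6, 29.3, 43.4 and 42.2 CPM in WT. The groups overlapped for both genes. The log2 fold change was -0.06 (SE 0.19, 95% interval -0.47 to 0.35; adjusted p = 0.972) for Irak1 and -0.004 (SE 0.22, 95% interval -0.47 to 0.46; adjusted p = 0.997) for Irak4 in edgeR. Exons of Irak4 overlap those of Twf1 on the opposite strand over 7.87% of their bases.

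Next, the members were ordered by level per kilobase of exon, since CPM of genes of unlike length cannot be compared. Unc93b1 was highest at 192 CPM per kilobase (range 160 to 216 over 8 libraries), followed by Ly86 at 106 (88.9 to 114). Tlr1 at 33.7 (25.7 to 43.5) and Myd88 at 26.03 (22.002 to 30.59) came next and overlapped. Cd180 at 14.7, Irak1 at 9.52, Tlr7 at 8.25 and Irak4 at 7.78 followed, and the range of each of the first 3 overlapped that of the next in order. The range of Irak4 (5.83 to 10.4) lay above that of Tlr9 (1.04 to 5.49). Tlr9 at 3.02 and Tlr4 at 1.52 were lowest and overlapped. Among 12503 genes with a length, these levels ran from the 97.8th percentile for Unc93b1 to the 19.4th for Tlr4.

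**Figure D5:**
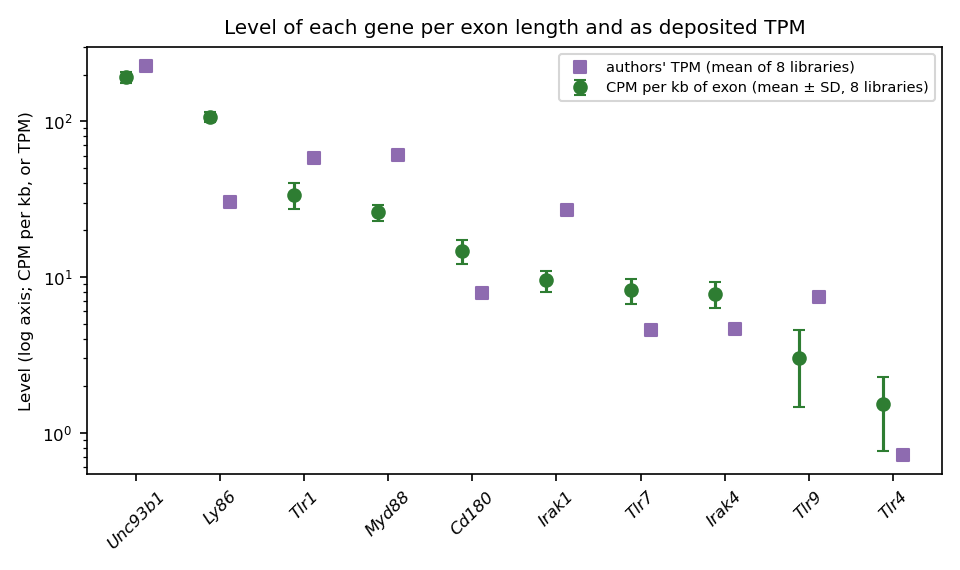
Level of each member on a log axis, as CPM per kilobase of exon (green, mean ± SD over 8 libraries) and as the authors' TPM (purple, mean of 8 libraries). Unc93b1 led on both scales and Tlr4 was last on both, while Ly86 was at 106 CPM per kilobase and 30.5 TPM.

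The deposited TPM gave another order in the middle, with Myd88 (61.2 TPM) and Tlr1 (58.2 TPM) above Ly86 (30.5 TPM). The TPM divide by the mean genomic span of a gene's transcripts, introns included, for 97.9% of 9312 genes (within 1%), which lowers genes with long introns such as Ly86. They are therefore set aside for comparing members.

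Outside the 10 members, 67 of 85 listed pathway genes could be tested, and none passed an adjusted p of 0.05 in edgeR or DESeq2. At an unadjusted p under 0.05, 4 of the 67 were lower in HET and 1 was higher, where 3.88% and 3.34% of all genes tested were. The median log2 fold change of the 67 was -0.115, and 44 were negative (65.7%), beside -0.001 and 50.1% over all genes tested. The remaining receptors were sparse, with Tlr2, the partner of TLR1, at 10.05 ± 5.40 CPM in HET and 15.5 ± 6.69 CPM in WT (log2 fold change -0.63, SE 0.45, adjusted p = 0.815). Tlr12 had a higher mean in HET than in WT, at 4.05 and 2.70 CPM, but ranged from 0.455 to 11.01 CPM within HET alone (adjusted p = 0.925).

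Among 12 tested coreceptors, chaperones and trafficking genes, Ctss, which encodes the endosomal protease cathepsin S, was at 533 to 610 CPM in HET and 617 to 697 CPM in WT. Its groups did not overlap, which 2.62% of all genes tested also showed with HET lower. Ctss had a log2 fold change of -0.20 (SE 0.08, unadjusted p = 0.0241, adjusted p = 0.612). Ctsb (adjusted p = 0.867) and Hsp90b1, an endoplasmic reticulum chaperone of these receptors (adjusted p = 0.972), had log2 fold changes of 0.16 and 0.09. Of the 21 tested adaptors, kinases and ubiquitin ligases, Traf6, the ligase downstream of the IRAK kinases, was at 21.8 ± 2.86 CPM in HET and 31.2 ± 7.84 CPM in WT (SD, n = 4 each; log2 fold change -0.52, adjusted p = 0.696). Tab1 and Sharpin had log2 fold changes of 0.62 and -0.11, with adjusted p-values of 0.787 and 0.889.

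The 5 interferon regulatory factors of the pathway had a median log2 fold change of 0.004, with -0.05 for Irf8 and 0.12 for Irf5. Among 11 tested inhibitors, Rnf216 was at 45.7 ± 7.95 CPM in HET and 63.3 ± 16.9 CPM in WT (SD, n = 4 each; unadjusted p = 0.0398, adjusted p = 0.655), and Nfkbia, an NF-kB target that restrains NF-kB, had a log2 fold change of 0.21 (adjusted p = 0.817). Of 15 tested genes that Toll-like receptor ligands induce in B cells, Cd69, an early activation marker, was at 231 ± 56.7 CPM in HET and 291 ± 15.7 CPM in WT (unadjusted p = 0.0352, adjusted p = 0.634).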

How the data were processed

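RNA of about 200 sorted B cells per library was prepared with an adapted SMART-Seq2 protocol. Per the labels and the study's methods, the authors aligned reads with HISAT2 2.2.1 to mm10 (GRCm38) and counted them per gene with HTSeq-count, and deposited raw counts and TPM per library. How strand and multiply mapped reads were treated, and which annotation was used, is not given in the sources used here. The deposited TPM were used for alternatives and for comparing scales.

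Counts of 24259 genes were filtered with filterByExpr (12744 kept), scaled by TMM and fitted with edgeR 4.0.16 (R 4.3.3, robust quasi-likelihood F-test, group as the only term), with Benjamini-Hochberg adjustment over all genes tested and a threshold of 0.05. Standard errors are on the log2 scale. The procedure was tested on simulated data, where 98% and 100% of genes with a true log2 fold change of 2 and -2 were called. For 1 and -1 it was 60% and 72%. Smaller changes, such as those of the members, were not simulated. The changed genes were drawn above a mean level that Tlr4 and Tlr9 did not reach. Levels per kilobase used exon lengths of GENCODE M21, and sequences came from GENCODE transcripts and RefSeq promoters, both of GRCm38. Alternatives used DESeq2 1.42.0, limma 3.58.1 and fits leaving out libraries. All 10 members are named with every library's value, and of each other pathway list the gene with the lowest p in each direction and the one with the highest mean TPM, except that 1 gene the rule names is not reported here. The 2 genes most like a member were sought for members with a mean of at least 10 CPM. The members and lists were chosen with earlier results of these data known. Intervals and floors cover counting error only where they rest on counts alone.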

Additional observations from a re-analysis of the deposited data

Results flagged for a closer look

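In 4 of 32 groups of 4 libraries examined, 1 library lay far from the others by Dixon's criterion, where chance gives about 1.6. Irak4 in WT replicate 2 was 29.26 CPM, while the other WT libraries were at 41.62 to 43.41 CPM. The summed level of 12 B cell markers was 28850.18 CPM in HET replicate 1 while replicates 2 to 4 of that group ran from 19864.52 to 21326.57 CPM. It was 22548.71 CPM in WT replicate 2, and the remaining WT values ran from 23494.82 to 23671.4 CPM. The HET value rested on Ighm, at 15362 CPM in replicate 1 and 6145 to 7366 CPM in replicates 2 to 4. Without Ighm the sum of the other 11 markers was 13489 CPM in HET replicate 1 and 12989 to 14893 CPM in the remaining HET libraries. In WT that sum without Ighm was 15462 to 16606 CPM, so that every HET library lay below every WT library. The summed level of antibody-secreting cell markers was 2191.98 CPM in HET replicate 1 and 307.13 to 588.85 CPM in HET replicates 2 to 4. Leaving out HET replicate 1 and WT replicate 2 together, a choice made after seeing the data, gave a Tlr1 log2 fold change of -0.43 (unadjusted p = 0.0111, adjusted p = 0.348 in edgeR).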

How the results depend on the processing

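Tlr1 kept its direction under every alternative run, with a log2 fold change of -0.54 to -0.41 when 1 library was left out (adjusted p 0.269 to 0.624), and passed the threshold in DESeq2 alone (adjusted p = 0.0365), where members called went from 0 to 1. All genes called numbered 3 in edgeR, 95 in DESeq2, 38 with no filter, 7 with a mean of at least 50 counts, 6 in limma-voom with quality weights, 0 and 1 in limma-trend on log2(TPM + 1) and log2(TPM + 0.1), 8 at an adjusted p under 0.1, and 1 to 6 when 1 library was left out. With the replicate block 0 genes were called and Tlr1 had an adjusted p of 0.497. The numbers did not pair the samples, since deviations of same-numbered libraries correlated at -0.051 to 0.013 and 1 of 4 HET libraries correlated best with its own number. Irak1 and Irak4 changed sign: Irak1 ran from -0.16 to 0.046 and Irak4 from -0.17 to 0.091 when 1 library was left out, and Irak1 was 0.031 without HET replicate 1 and WT replicate 2. The cause of these changes was not tested. Per kilobase of the longest transcript, an alternative chosen after seeing the data, the order of levels differed from that per exon length only in Tlr7 (8.64) and Irak4 (11.4), which changed places. Tlr4 had 32 to 151 counts per library and Tlr9 had 28 to 155, for which counting error gives 11.3% and 10.3%. The coefficients of variation in HET and WT were larger, at 47.3% and 47.5% for Tlr4 and 73.7% and 36.1% for Tlr9.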
